A study of Arabidopsis thaliana with 10 samples.

Results

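The cytochrome b6f complex sits in the thylakoid membrane between the photosystems, where it takes electrons from plastoquinol, passes them to plastocyanin and moves protons into the lumen. Most of its subunits are encoded in the chloroplast genome, and the transcripts of these pet genes were followed here in leaves of *Arabidopsis thaliana*. Members were taken as every chloroplast-encoded pet gene that a probe set of the Affymetrix ATH1 array names alone, which gave 6 genes (*petA*, *petB*, *petD*, *petG*, *petL* and *petN*), each with 1 probe set, of 69 chloroplast genes and 13356 genes in all that are named alone. The array held 22746 probe sets other than controls.

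Cytochrome f, the product of *petA*, cytochrome b6, the product of *petB*, and subunit IV, the product of *petD*, carry out the electron transfer together with a nuclear-encoded Rieske protein. The products of *petG*, *petL* and *petN* are very small proteins that each span the membrane once and are needed for a stable or fully active complex. Chloroplast genes are transcribed in groups and the long first transcripts are then cut and trimmed, so that the RNA of a gene depends on its own processing as well as on transcription of the group. Stable poly(A) tails are a feature of nuclear mRNAs and not of chloroplast mRNAs. Whether the labelling captured chloroplast RNAs equally in all groups was not tested, so the differences given below are differences in array intensity.

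The study asked how transcripts change without AtCPSF30, a subunit of the nuclear machinery that cleaves and polyadenylates mRNA. Leaves were taken from plants in the Columbia background grown in soil for 30 days under short days, and each RNA sample was made from 10 to 15 plants. The wild-type (3 arrays) was compared with *oxt6* (3 arrays), a T-DNA insertion mutant in At1g30460 that lacks both AtCPSF30 proteins, and with complemented plants (4 arrays). The complemented plants are *oxt6* plants that carry a genomic transgene with the gene's own upstream sequence and make only the smaller of both proteins, so they differ from the wild-type in the missing larger protein as well as in the transgene. They come from 2 independent transformants, line 5 and line 6, with 2 arrays each. The labels call the arrays of a group biological replicates. P-values of the fits measure the spread of arrays around their group means, pooled over all groups in the fit.

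The values are intensities that the authors computed with the PLIER protocol, with a floor at 16. Array medians lay between 40.9 and 60.5. The complemented arrays stood apart from the others in the RNA control signal, which is the mean over actin, GAPDH and ubiquitin of the log2 intensity of the 3' probe set minus that of the 5' probe set. Wild-type arrays had a signal of 2.18 ± 0.18 (SD, n = 3), and *oxt6* arrays had 2.24 ± 1.0 (SD, n = 3), with replicate 1 at 1.09. In the complemented arrays it was 0.039 ± 0.069 (SD, n = 4). The complemented arrays differed from the wild-type and from *oxt6* (exact permutation test, two-sided, p = 0.0286 in both cases, below which 3 arrays against 4 cannot go). Its part in the results below was not tested, but each fit was repeated with this signal as a covariate. RCA, which encodes Rubisco activase and is the 1 leaf marker of 6 that is named alone, read 1140 to 1569 in the wild-type, 631 to 3351 in *oxt6* and 6043 to 8232 in the complemented arrays. The root marker EXPA7, 1 of 5 that is named alone, read 16 to 56.9 and was too dim to be tested, and no marker of the 4 for flowers or the 4 for seeds is named alone. The probe set that the study's methods give for At1g30460, which is said to detect only the larger of its RNAs, read 39.2, 38.7 and 71.2 in the wild-type, 27.1, 54.7 and 38.1 in *oxt6*, 16.0 and 18.7 in line 5, and 16.0 in both arrays of line 6. It was below the limit for testing, the *oxt6* and wild-type ranges overlapped, and this dim signal did not set the *oxt6* arrays apart from the wild-type, while all complemented arrays were at or near the floor.

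In *oxt6* 2 of the 5 members tested passed against the wild-type, *petA* lower and *petG* higher, beside 28.7% of all probe sets tested. In the complemented plants every one of the 5 members tested differed from the wild-type, *petB* upwards and *petA*, *petG*, *petL* and *petN* downwards. Of all probe sets tested, 71.8% passed in that comparison. The lines themselves differed for *petL* and *petN*, which were lowest in line 6, beside 4.26% of all probe sets called. Differences between groups were tested with limma on log2(intensity + 1) in 1 fit of all arrays, adjusted over 12453 probe sets. Line 5 was compared with line 6 in another fit of all arrays with a mean for each line. Tests of each line alone against the wild-type or *oxt6* came from fits without the other line's arrays. Fold changes are given on the same log2(intensity + 1) scale. The sixth member, *petD*, was too dim to enter these tests. In bulk leaf RNA, fewer cells of a type and less RNA per cell cannot be told apart.

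**Figure D1:**
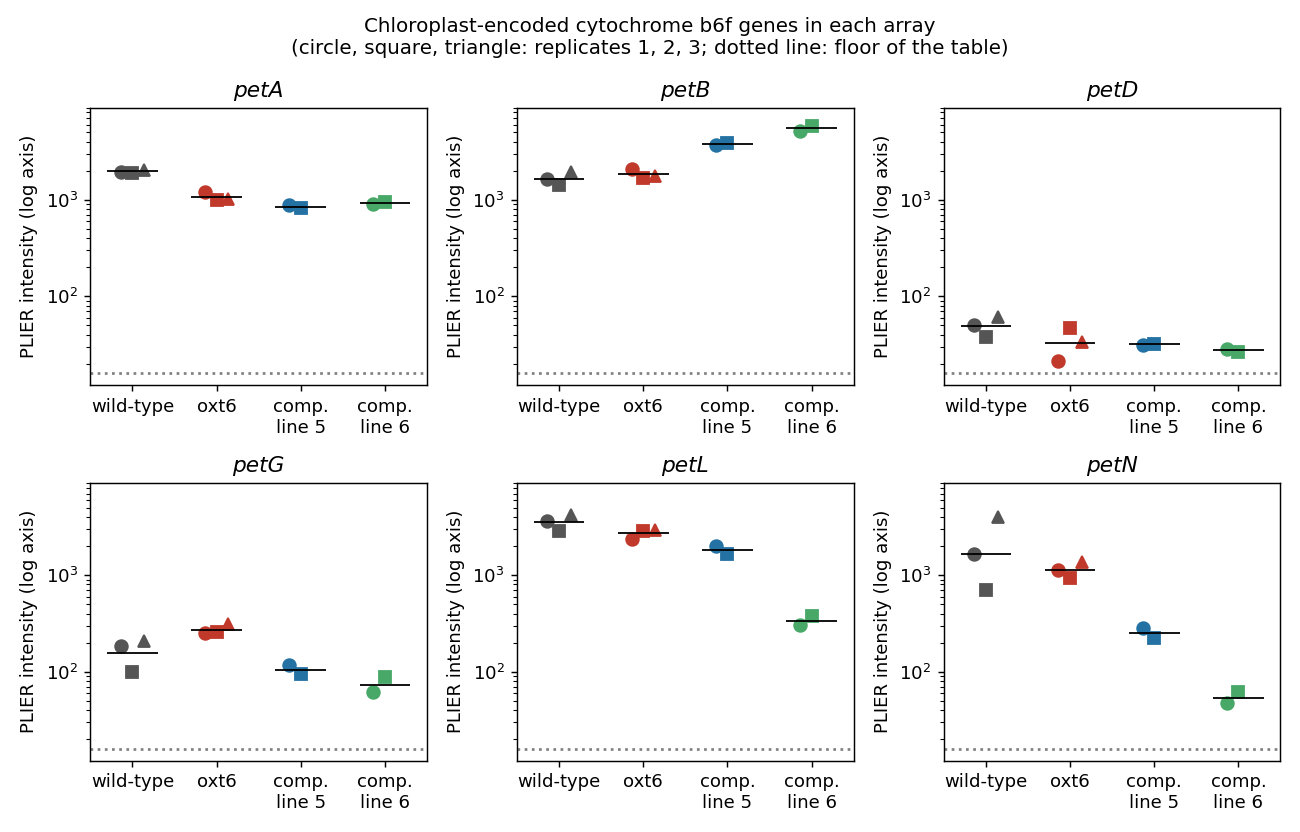
PLIER intensity (log axis) of the 6 chloroplast-encoded cytochrome b6f genes in each array, with replicates 1, 2 and 3 as circles, squares and triangles, the mean of log2 values of each group or line as a bar and the floor of 16 as a dotted line. *petB* is highest in the complemented lines, and *petL* and *petN* are lowest in line 6, where *petN* reads 46.9 and 61.3. *petD* is dim, at 21.6 to 60.8 over all arrays.

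*petA* encodes cytochrome f, the subunit that hands electrons to plastocyanin. It read 1951.7, 1902.6 and 2039.6 in the wild-type, 1202.6, 1000.5 and 1015.1 in *oxt6*, 888.9 and 811.4 in line 5, and 909.3 and 945.6 in line 6. All 3 wild-type arrays were above all others, and the *oxt6* arrays were all above the complemented arrays. Relative to the wild-type, the transcript was 1.84-fold lower in *oxt6* (log2 difference -0.88, SE 0.16, adjusted p = 0.00102) and 2.21-fold lower in the complemented plants (-1.15, SE 0.15, adjusted p = 1.47e-05). The difference between *oxt6* and the complemented plants, 0.27 on the log2 scale with a 95% interval from -0.047 to 0.58, did not pass the test (adjusted p = 0.117). Lines 5 and 6 differed by -0.13 (adjusted p = 0.804). The lower level in *oxt6* passed under all 22 alternatives tried and the lower level in the complemented plants under all 24.

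*petB* encodes cytochrome b6, which holds the haems that carry electrons across the membrane. It read 1621.8, 1435.5 and 1942.1 in the wild-type, 2069.7, 1669.4 and 1758.4 in *oxt6*, 3678.6 and 3881.2 in line 5, and 5153.8 and 5795.9 in line 6. The wild-type and *oxt6* ranges overlapped, while all complemented arrays were above them and line 6 was above line 5. *oxt6* did not pass the test against the wild-type (0.14, SE 0.20, 95% interval -0.30 to 0.58, adjusted p = 0.641). The transcript was 2.75-fold higher in the complemented plants than in the wild-type (1.46, SE 0.19, adjusted p = 1.83e-05) and 2.49-fold higher than in *oxt6* (adjusted p = 4.46e-05). Each line alone also passed against the wild-type, with a 2.28-fold rise in line 5 and a 3.30-fold rise in line 6. The difference between the lines, -0.53 (95% interval -0.90 to -0.16), did not pass the test (adjusted p = 0.128), but passed in a fit of only the 4 complemented arrays (adjusted p = 5.23e-04).

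*petD*, the gene of subunit IV, gave a dim signal, at most 60.8 beside a floor of 16. It read 49.8, 38.2 and 60.8 in the wild-type, 21.6, 47.4 and 33.7 in *oxt6*, 31.6 and 32.2 in line 5, and 28.6 and 26.5 in line 6. The complemented arrays were all below the wild-type arrays, whereas the *oxt6* range overlapped both. The mean fell under the limit for testing, which corresponds to an intensity of 44.2. When no limit was set and all probe sets were tested, the complemented plants were lower than the wild-type (-0.70, SE 0.25, adjusted p = 0.0242), and neither *oxt6* against the wild-type (-0.57, adjusted p = 0.189) nor *oxt6* against the complemented plants (0.13, adjusted p = 0.696) passed.

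*petG* encodes a small subunit that is required for the complex to accumulate. It read 184.7, 98.1 and 209.4 in the wild-type, 250.7, 256.8 and 314.7 in *oxt6*, 116.1 and 95.6 in line 5, and 61.1 and 87.1 in line 6. All *oxt6* arrays were above all others, and the wild-type and complemented ranges overlapped through wild-type replicate 2. Relative to the wild-type, *oxt6* was 1.74-fold higher (0.80, SE 0.28, adjusted p = 0.0474), a call that 13 of 22 alternatives did not keep, among them the fit without wild-type replicate 2 (0.47, adjusted p = 0.204). It was 3.08-fold higher in *oxt6* than in the complemented plants (1.63, SE 0.26, adjusted p = 1.07e-04). The complemented plants were 1.77-fold lower than the wild-type (-0.82, SE 0.26, adjusted p = 0.0123), and this call was lost with line 5 alone (-0.56, adjusted p = 0.115), without wild-type replicate 1 (-0.70) and without wild-type replicate 3 (-0.61).

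*petL* encodes another small subunit, which contributes to the stability of the complex. It read 3679.4, 2856.7 and 4168.9 in the wild-type, 2382.4, 2868.5 and 2937.3 in *oxt6*, 2008.5 and 1669.3 in line 5, and 303.2 and 378.3 in line 6. The wild-type and *oxt6* arrays overlapped, line 5 lay below both, and line 6 lay far below line 5. Line 5 was 5.39-fold above line 6 (2.43, SE 0.20, adjusted p = 5.07e-05). Set against each line alone, the wild-type stood 1.92-fold above line 5 (adjusted p = 9.04e-04) and 10.4-fold above line 6 (adjusted p = 3.44e-07). The same order held against *oxt6*, which was higher than line 5 by 0.57 (adjusted p = 0.0179) and than line 6 by 3.0 (adjusted p = 4.91e-07). With both lines together the complemented plants were lower than the wild-type by 4.47-fold (-2.16, SE 0.54, adjusted p = 0.00281). *oxt6* against the wild-type did not pass (-0.38, 95% interval -1.62 to 0.87, adjusted p = 0.665). The spread in that fit includes the gap between lines 5 and 6, which were taken as 1 group. In a fit of only the wild-type and *oxt6* arrays the same difference did not pass either (adjusted p = 0.125).

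*petN*, formerly *ycf6*, encodes the third small subunit, without which tobacco chloroplasts hold no cytochrome b6f complex. It read 1667.8, 696 and 4028.7 in the wild-type, 1119, 939.8 and 1381.1 in *oxt6*, 286.3 and 224.6 in line 5, and 46.9 and 61.3 in line 6. The wild-type arrays were spread around all *oxt6* arrays, and all complemented arrays were below both groups, with line 6 the lowest. The highest wild-type array was 5.79 times the lowest, and 99.9% of the probe sets tested had a smaller ratio there. *oxt6* against the wild-type did not pass (-0.56, SE 0.67, 95% interval -2.01 to 0.88, adjusted p = 0.568), and without wild-type replicate 3 the difference was 0.072. The complemented plants were 14.2-fold lower than the wild-type (-3.83, SE 0.63, adjusted p = 1.08e-04) and 9.61-fold lower than *oxt6* (adjusted p = 4.18e-04). Without wild-type replicate 2 the difference from the wild-type was -4.46, and without wild-type replicate 3 it was -3.19. Against the wild-type, line 5 was 6.57-fold lower (adjusted p = 8.96e-04) and line 6 was 30.6-fold lower (adjusted p = 2.01e-05). Line 5 was 4.66-fold above line 6 (2.22, SE 0.56, adjusted p = 0.0461). Of 22 alternatives, 13 did not keep this call, among them an offset of 16 (1.95, adjusted p = 0.074). The omission of any 1 complemented array, which leaves 1 array in a line, also lost it, with differences of 2.03 to 2.41. The call was kept with only the 4 complemented arrays (adjusted p = 1.15e-06) and with array weights (adjusted p = 4.95e-05). It was also kept without wild-type replicate 2 (adjusted p = 0.00527) or wild-type replicate 3 (adjusted p = 0.00447). The line 6 values lie near the medians of their arrays, 52.1 and 46.6, and no detection call was used, so the folds against line 6 compare measured intensities in which signal and background cannot be told apart.

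Over the members, 1 was higher and 1 lower of 5 tested in *oxt6* against the wild-type. Of all probe sets tested 28.7% passed there, 16.4% higher and 12.3% lower. Against the complemented plants, 3 members were higher and 1 lower in *oxt6*, beside 69.3% of all probe sets called, 32.3% higher and 37% lower, so that 4 of 5 is near the background. Between complemented and wild-type plants, 1 member was higher and 4 were lower, beside 71.8% of all probe sets called, 38% higher and 33.8% lower. Line 5 was above line 6 for 2 members and below it for none, beside 4.26% of all probe sets called, 3.2% higher and 1.06% lower. These comparisons share arrays and are not independent of each other.

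The ranges of *oxt6* and the wild-type did not overlap for 2 of the 5 members tested, *petA* and *petG*, beside 40.9% of all probe sets. *oxt6* and the complemented plants did not overlap for any of the 5, beside 68.3%. Complemented and wild-type plants did not overlap for 4, all but *petG*, beside 74.3%. Lines 5 and 6 did not overlap for any of the 5, beside 62.2%.

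**Figure D2:**
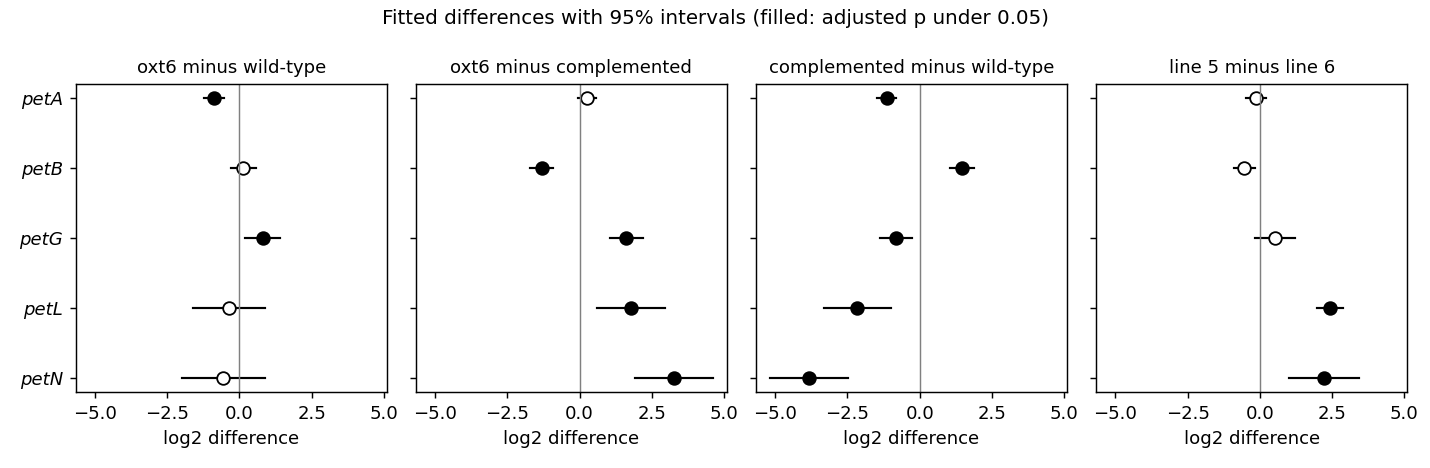
Fitted log2 differences (horizontal axis) with 95% intervals for the 5 cytochrome b6f members tested, in 4 comparisons; filled points have an adjusted p under 0.05. Intervals are widest for *petL* and *petN* where the complemented lines are taken as 1 group or the wild-type arrays are spread. The differences run in both directions in each of the 4 comparisons.

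When the RNA control signal was a covariate, *petA* and *petB* passed between complemented and wild-type plants. There *petG* (-0.35), *petL* (-1.45) and *petN* (-3.11) kept their direction but did not pass, and 4113 of all probe sets passed in place of 8947. All complemented arrays had a lower signal than all other arrays, so fits with this covariate cannot separate the complemented group from the signal. Between *oxt6* and the complemented plants none of the 5 members passed with this covariate, the values being -1.01 for *petB*, 1.14 for *petG*, 1.06 for *petL* and 2.52 for *petN*, where 3093 of all probe sets passed in place of 8631. The signal differed between the lines by 0.105 (exact permutation test, two-sided, p = 0.333, below which 2 arrays against 2 cannot go). *petL* and *petN* still differed between the lines with the signal as a covariate, and *petB* passed as well, lower in line 5 (-0.52, adjusted p = 0.0436).

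The members lie in 4 groups of neighbouring genes on the chloroplast genome, and 11 neighbours were tested beside them, most of them in the same transcription units, with *psbN* on the other strand and *psbM* only known here to lie next to *petN*. *petB* and *petD* follow *psbB*, *psbT* and *psbH*, genes of photosystem II, and *psbN* lies between *psbT* and *psbH*. In the complemented plants *psbH* moved as *petB* did: it read 581.3, 293.1 and 562.1 in the wild-type, 616.2, 415.1 and 551.1 in *oxt6*, 870.4 and 905.0 in line 5, and 1377.1 and 1562.8 in line 6. All complemented arrays were above all other arrays, as for *petB*, and the rise against the wild-type was 2.49-fold (1.32, SE 0.28, adjusted p = 8.42e-04). The other genes of the group moved the other way, with *psbB* at -1.12 (adjusted p = 0.00202), *psbT* at -2.54 (adjusted p = 2.62e-05) and *psbN* at -2.09 (adjusted p = 7.03e-05). Within 1 group of genes the direction in the complemented plants changed between *psbT* and *psbH* and, where *petD* was tested with no limit on dim probe sets, again between *petB* and *petD*.

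*petA* is the last gene after *psaI*, a photosystem I gene, *ycf4*, which encodes a photosystem I assembly factor, and *cemA*, which encodes an envelope membrane protein. None of these passed in *oxt6* against the wild-type, where *petA* did, with differences of -0.20, 0.34 and -0.17. In the complemented plants *psaI* was lower (-1.59, adjusted p = 0.00379), and *ycf4* (0.61, adjusted p = 0.119) and *cemA* (-0.60, adjusted p = 0.0731) did not pass.

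*petL* and *petG* are followed by *psaJ* of photosystem I and by the ribosomal protein genes *rpl33* and *rps18*. *psaJ* (-0.83, adjusted p = 0.00333) and *rps18* (-1.75, adjusted p = 3.19e-05) were lower in the complemented plants, as were *petL* and *petG*, and *rpl33* did not pass (0.52, adjusted p = 0.122). *psaJ* and *rps18* were also higher in line 5 than in line 6, by 0.77 (adjusted p = 0.00766) and 0.89 (adjusted p = 0.0132), beside 2.43 for *petL*. *petN* lies next to *psbM*, a small photosystem II gene, which was lower in the complemented plants by far less than *petN* (-0.47, adjusted p = 0.00787) and did not pass between the lines (0.19, adjusted p = 0.602). A test of the difference between *petN* and *psbM* was not made.

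Of the 11 neighbours, none passed in *oxt6* against the wild-type, beside 28.7% of all probe sets tested (median -0.20, beside -0.040 over all). In the complemented plants 1 was higher and 7 were lower (median -0.83, beside 0.044 over all). Of all probe sets tested 71.8% passed there, 38% higher and 33.8% lower. Between the lines, *psaI*, *psaJ* and *rps18* were higher in line 5 and none was lower, beside 4.26% of all probe sets called. *psaI* is a neighbour of *petA*, which itself did not differ between the lines.

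**Figure D3:**
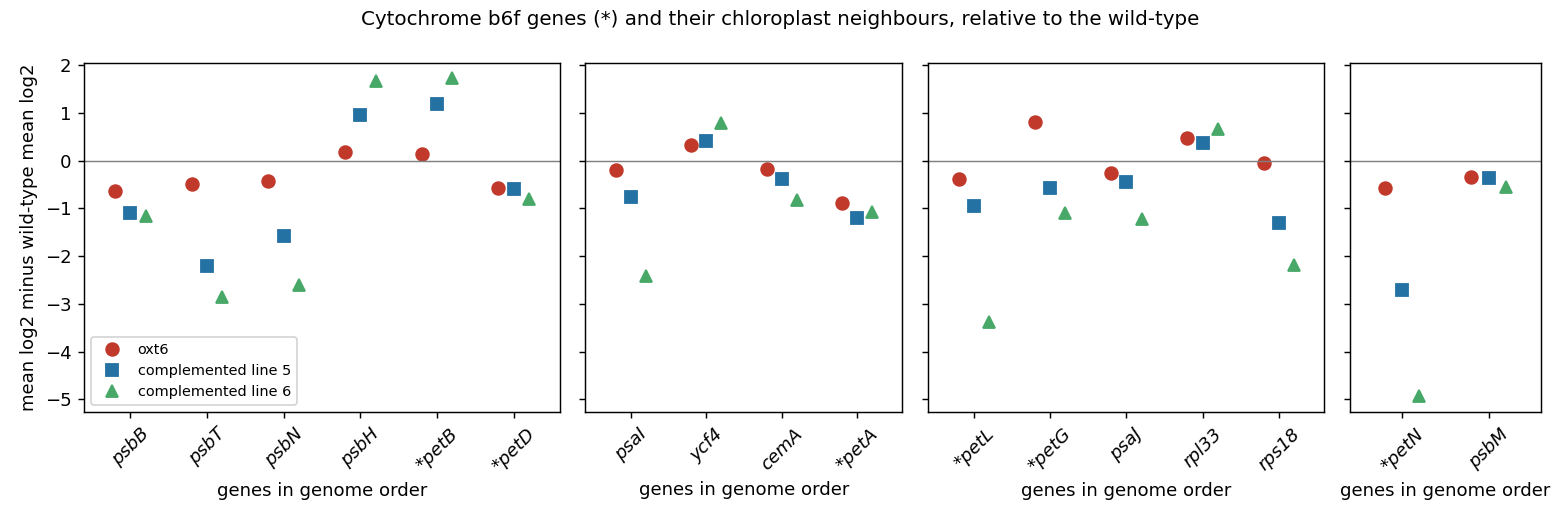
Mean log2 intensity minus the wild-type mean (vertical axis) for the cytochrome b6f genes, marked with asterisks, and their 11 neighbours in genome order, in *oxt6* (circles) and in complemented lines 5 (squares) and 6 (triangles). *psbH* and *petB* lie above 0 in both lines beside *psbT* and *psbN* below it, and line 6 is furthest below 0 at *petL* and *petN*.

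Of the other chloroplast genes 63 are named alone and 60 were tested. Against the wild-type, 4 were higher and 3 lower in *oxt6*, with a median of -0.13, beside -0.38 for the 5 cytochrome b6f members. The complemented plants had 13 higher and 35 lower, with a median of -0.89, beside -1.15 for the members. Of all probe sets tested, 28.7% passed in *oxt6* and 71.8% in the complemented plants, the latter 38% higher and 33.8% lower. The value of *petN*, -3.83, lay below the range of these 60 genes, which ran from -2.81 to 4.48. Between the lines 9 were higher in line 5 and 1 was lower, beside 4.26% of all probe sets called. The 60 genes ranged from -1.46 to 1.64 there, and both *petL* at 2.43 and *petN* at 2.22 lay above this range. In the complemented plants 1 photosystem I gene was higher and 3 were lower of 5 tested, 1 photosystem II gene was higher and 11 were lower of 15, and 2 ATP synthase genes were higher and 3 lower of 6. The NDH complex had 4 higher and 5 lower of 9 tested, the ribosome had 4 higher and 6 lower of 14, and the RNA polymerase had 0 higher and 3 lower of 3. The same 71.8% of all probe sets is the background for each of these counts.

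**Figure D4:**
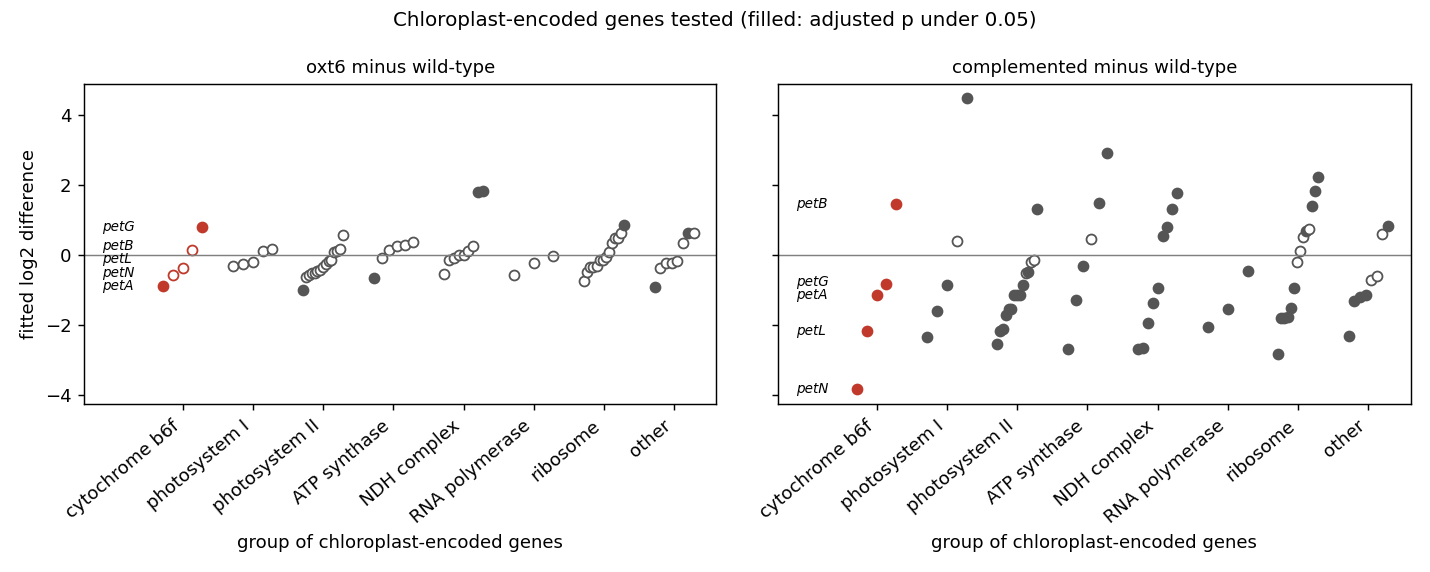
Fitted log2 differences (vertical axis) of the chloroplast-encoded genes tested, grouped by complex, in *oxt6* and in the complemented plants against the wild-type; filled points have an adjusted p under 0.05 and cytochrome b6f genes are in red. Few points are filled in *oxt6*, whereas in the complemented plants most are, and *petN* is the lowest.

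The nuclear genome supplies the other subunits and the factors that build the complex. Of 25 listed genes of the pathway, 7 are named alone by a probe set, and all 7 were tested. *PETM*, a small nuclear-encoded subunit, read 9939.9, 10309.3 and 9883.1 in the wild-type, 10842.9, 11532.4 and 11103.3 in *oxt6*, 7933.5 and 7639.4 in line 5, and 5765.5 and 5542.1 in line 6. The order of the groups was that of *petG*, with *oxt6* highest and line 6 lowest. It was 1.51-fold lower in the complemented plants than in the wild-type (-0.60, adjusted p = 0.00324) and higher in line 5 than in line 6 (0.46, adjusted p = 0.0206), and *oxt6* against the wild-type did not pass (0.15, adjusted p = 0.525).

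Of the 9 assembly factors listed, 4 were measured, and 1 was higher and 1 lower in *oxt6* against the wild-type. *CCB3*, which helps attach a haem to cytochrome b6, was 2.0-fold higher in *oxt6* (adjusted p = 0.0152) through replicates 2 and 3, which read 540.9 and 497.8 beside 220.3 in replicate 1 and 173.1 to 213.3 in the wild-type. *CCDA*, a thylakoid protein that passes reducing power to cytochrome f assembly, was 1.84-fold lower in *oxt6* (-0.88, adjusted p = 0.00427) and 1.60-fold lower in the complemented plants (adjusted p = 0.00462). *CCS1* and the chloroplast gene *ccsA*, whose products act together in the attachment of haem to cytochrome f, went in opposite directions in the complemented plants, at 0.93 (adjusted p = 6.24e-04) and -1.12 (adjusted p = 2.79e-04).

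*CRP1*, a pentatricopeptide repeat protein known from maize to be needed for translation of *petA* and for processing of the *petB* and *petD* RNAs, read 35.0, 26.5 and 60.6 in the wild-type and 103.8, 87.8, 162.0 and 157.7 in the complemented arrays. All complemented arrays were above all other arrays, and the rise was 3.16-fold (1.66, SE 0.28, adjusted p = 1.43e-04). The wild-type values of *CRP1* lay near or below the medians of their arrays, 50.8, 49.0 and 57.9. Signal and background cannot be told apart there, so the fold compares measured intensities. *oxt6*, at 46.5 to 65.3, did not pass against the wild-type (0.47, adjusted p = 0.269). *PGRL1B*, a protein of cyclic electron flow around photosystem I, was 2.32-fold higher in *oxt6* (adjusted p = 1.02e-04) and 2.89-fold higher in the complemented plants (adjusted p = 1.74e-06) than in the wild-type. None of the 6 listed electron carriers next to the complex is named alone.

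The members did not share 1 pattern over the arrays. Likeness was measured as the root mean square difference between log2 profiles, each centred on its own mean over the 10 arrays, over 6800 probe sets, of which 0.956% belong to chloroplast genes. Among the members *petA* and *petD* were closest, at 0.399, and *petB* and *petN* were furthest apart, at 2.63. Ranked by nearness among the probe sets compared, *petD* was only at 962 for *petA*, and *petA* at 1551 for *petD*. *petL* was at 64 for *petN*, and *petN* at 1100 for *petL*. However, *petD* was too dim to be tested, and differences between arrays can be compressed in dim probe sets. *petB* and *petD*, which lie next to each other, were 1.01 apart, and *petL* and *petG*, also next to each other, were 0.855 apart. The genes nearest to each member were of the nucleus, with AT2G36470 for *petA* (0.155), AT3G02220 (0.131) and *SPP*, the stromal processing peptidase (0.134), for *petB*, AT2G35330 for *petD* (0.103), AT4G15930 for *petG* (0.285), AT1G30260 for *petL* (0.227) and AT3G09470 for *petN* (0.622). Chloroplast genes were 0 of the nearest 20 for *petA*, *petB* and *petD*, and 1 of the nearest 20 for each of *petG*, *petL* and *petN*.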

How the data were processed

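RNA from leaves was labelled by the standard Affymetrix protocol and hybridized to 10 ATH1 arrays. The deposited values are intensities on a linear scale that the authors made with the PLIER protocol in ArrayAssist (version not given in the sources used here), with a floor at 16. Gene names came from the platform annotation, in which 13513 probe sets name 1 gene, 503 several and 8730 none, with symbols and gene order from the RefSeq table of TAIR10.1. After 64 control probe sets were left out, log2(intensity + 1) of the 12453 brightest by mean was compared in limma 3.58.1 (R 4.3.3), fitting 1 mean per group (or per line) with eBayes and trend. Benjamini-Hochberg adjustment ran over all of these, and 0.05 was the threshold. The script was tested on simulated data. Exact permutation tests used scipy 1.17.1.

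The members, lists and tests were chosen with earlier results of these data known. All members are given in full, and of each list up to 4 genes with the lowest locus numbers; the other neighbours were named after their values were seen. Alternatives were the methods' t-test, other scalings, filters, an offset of 16, other samples, a replicate block, array weights, the RNA control signal as a covariate and each array left out. No sequences or coordinates are given, since no genome was used here.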

Additional observations from a re-analysis of the deposited data

Results flagged for a closer look

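A pair of results differed between the complemented lines under the same contrast, by a test of the difference itself. *petL* was higher in line 5 than in line 6 by 2.43 on the log2 scale (limma, adjusted p = 5.07e-05), with both line 5 arrays above both line 6 arrays, and *petN* by 2.22 (limma, adjusted p = 0.0461), again with both arrays of line 5 above both of line 6. By Dixon's test on the 4 complemented arrays, no member had an array that stood out. The test took both lines together, so a difference between the lines widens the range against which an array is judged. For *petL* and *petN*, where the lines lay far apart, it therefore cannot show whether an array stood out.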

How the results depend on the processing

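No call changed its direction, and *petN* in *oxt6* against the wild-type, which was not called, went from -0.56 to 0.072 without wild-type replicate 3. The count of members called in *oxt6* against the wild-type was 2, and it was 1 by the methods' t-test, either unadjusted with p under 0.01 or after Benjamini-Hochberg adjustment, with quantile normalization, with no filter, with only the groups compared and at an adjusted p under 0.01; it ranged from 1 to 2 when each array was left out, and *petG* was the member lost. Against the complemented plants the count of 4 was 0 with the RNA control signal as a covariate, 3 by the unadjusted t-test, 4 by the adjusted t-test, with *petA* gained (adjusted p = 0.0484) and *petL* lost (adjusted p = 0.118), and 4 without any 1 array. Between complemented and wild-type plants the count of 5 was 2 by the unadjusted t-test, 3 with it after adjustment, 2 with the covariate, and 4 to 5 without any 1 array. Between the lines the count of 2 was 1 by the unadjusted t-test, 0 with it after adjustment, when no probe set of the array passed and 888 had an unadjusted p under 0.01, 1 with quantile normalization, with equal medians, with an offset of 16 and at an adjusted p under 0.01, 4 with only the 4 complemented arrays, and 1 to 3 without any 1 array. The *petG* call in *oxt6* against the wild-type was lost without wild-type replicate 1 or 2, any *oxt6* array, or replicate 2 of either line. By the t-test *petL* did not pass between complemented and wild-type plants (adjusted p = 0.069). The line difference of *petB* passed without *oxt6* replicate 1 (adjusted p = 0.0311). It also passed with array weights and with the covariate, where the count between the lines was 3. The line 5 call of *petN* was lost without each complemented array, wild-type replicate 1, or *oxt6* replicate 2 or 3. The cause was not tested.

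Same-numbered wild-type and *oxt6* arrays deviated from their group means with correlations of 0.10, -0.21 and 0.13 over probe sets. Differently numbered arrays gave -0.23 to 0.24, so there was no sign that the numbers pair the samples. Deviations from a mean of 3 arrays depend on each other, so this check cannot exclude a pairing. With a replicate block the counts of members were 2, 4, 5 and 2, as without it. Setting all arrays to equal medians moved the median of complemented against wild-type from 0.044 to 0.17, and the calls in *oxt6* against the wild-type from 2044 higher and 1532 lower to 2534 and 1190. *petD* was below the limit for testing, and each line had only 2 arrays.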

Other observations

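The wild-type arrays came in the same order for every member, with replicate 3 highest, then replicate 1, then replicate 2, in 6 of 6 members and in 41 of 63 other chloroplast genes, beside 27.3% of the probe sets tested. The array medians had this order as well, at 57.9, 50.8 and 49.0. With all arrays set to equal medians, 3 of 6 members and 29 of 63 other chloroplast genes kept it, beside 13.1% of the probe sets tested.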
